A study of Mus musculus with 4 samples.

Results

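The angiogenic factors and stanniocalcins described here are secreted proteins that act on blood and lymph vessels, lipid use and mineral balance. The genes were Vegfa, Vegfb, Vegfc, Pgf, Angptl2, Angptl4, Stc1, Stc2, Thbs1 and Thbs2, chosen by name. Of these 10 genes, 9 had a probe set whose platform annotation named that gene alone, with 1 probe set each, out of 22180 genes so measured. Angptl2 had none, and its expression was not analysed here. Of the 9 genes, 8 lay in the upper 60% of genes by mean level, and Pgf did not.

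RNA came from mouse mesenchymal stem cells derived from bone marrow, stromal cells that can give rise to bone, cartilage and fat cells. There were 4 groups with 1 Affymetrix array each: Snail1-KO cells treated with TGF-b1 for 2 h, untreated Snail1-KO cells, Snail1-WT cells treated with TGF-b1 for 2 h and untreated Snail1-WT cells. Snail1, encoded by Snai1, is a zinc finger repressor, and TGF-b1 is a cytokine that signals through SMAD proteins. The sources used here do not say how Snail1 was removed, or how many animals or clones the cells came from.

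Vessel growth is driven by the VEGF ligands, which bind receptor tyrosine kinases on endothelial cells, and stromal cells around the vessels are a main source of them. VEGF-A is induced by low oxygen through the HIF transcription factors, as are ANGPTL4 and the stanniocalcins in many cell types. Thrombospondins oppose vessel growth, and thrombospondin 1 can also release TGF-b from its latent form.

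Values are the authors' RMA log2 values, on which a difference of 1 is 2-fold. With 1 array per group no difference has a replicate check or a p-value. As a yardstick, a noise SD for such differences was estimated per gene from how far both TGF-b1 responses disagreed in the 500 genes nearest in level. True differences between the responses are part of it, and any spread between cultures that both arrays of a genotype share is not. Probe sets differ in their brightness, so levels are compared within a gene only. In such bulk RNA, a change per cell and a change in the mix of cells cannot be told apart.

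Snai1 measured 5.34 in treated and 5.09 in untreated Snail1-KO cells, against 7.63 in treated and 6.69 in untreated Snail1-WT cells, which is the direction of the labels. Of 9 measured mesenchymal markers 8 passed the filter on level, and the exception was Nt5e. The 7 endothelial markers lay between 2.93 and 4.88 on all arrays, and 3 of them passed. Of the 8 leukocyte and macrophage markers 4 passed. Ptprc, which did not, lay between 3.15 and 3.78, while Cd68 lay between 6.05 and 6.23 and Cd14 between 5.53 and 6.59. Cd14 differed with TGF-b1 by -0.47 in Snail1-KO and -0.64 in Snail1-WT cells. The summed log2 level of the 8 markers was 35.8 in treated and 37.4 in untreated Snail1-KO cells, against 36.1 in each of the Snail1-WT arrays. All 6 smooth muscle and pericyte markers passed, with Acta2 between 11.70 and 11.84. Of these, Cnn1 differed between Snail1-KO and Snail1-WT cells by -0.76 with TGF-b1 and -0.90 without. The medians of that list were 0.049 and 0.18. The part of other cell types in the results below was not tested.

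Vegfa, the principal growth factor of endothelial cells, measured 9.96 in treated and 8.73 in untreated Snail1-KO cells, and 10.33 in treated and 8.80 in untreated Snail1-WT cells. Both treated arrays lay above both untreated arrays. TGF-b1-treated cells were higher by 1.23 in Snail1-KO cells (2.35-fold) and by 1.53 in Snail1-WT cells (2.88-fold), with a noise SD of 0.082. These responses ranked 71 and 26 from the top of 13308 kept genes. The untreated Snail1-KO array differed from the untreated Snail1-WT array by -0.071, less than the noise SD. The treated pair differed by -0.37, and the response of Snail1-KO minus that of Snail1-WT cells was -0.30, in size 2.55 times the noise SD of a difference of responses (0.12).

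The other VEGF ligands had smaller TGF-b1 responses. Vegfb, whose product binds VEGF receptor 1, measured 9.21 in treated and 9.40 in untreated Snail1-KO cells, and 9.06 in treated and 9.23 in untreated Snail1-WT cells. Its TGF-b1 responses were -0.19 and -0.18, and its levels on the 4 arrays spanned 0.34, with no neighbours in order further apart than 2 noise SD. Vegfc, the growth factor of lymphatic vessels, measured 6.12 in treated and 5.98 in untreated Snail1-KO cells, and 6.76 in treated and 6.39 in untreated Snail1-WT cells. Both Snail1-KO arrays lay below both Snail1-WT arrays, by -0.64 with TGF-b1 and -0.41 without, against a noise SD of 0.17. The response of Vegfc was 0.14 in Snail1-KO cells, under the noise SD, and 0.37 in Snail1-WT cells. Pgf, which encodes placental growth factor, measured 3.53 and 3.39 in treated and untreated Snail1-KO cells and 3.52 and 3.47 in treated and untreated Snail1-WT cells. Its level lies below that of the kept genes (4.51 and above), and no difference reached its noise SD of 0.25.

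**Figure D1:**
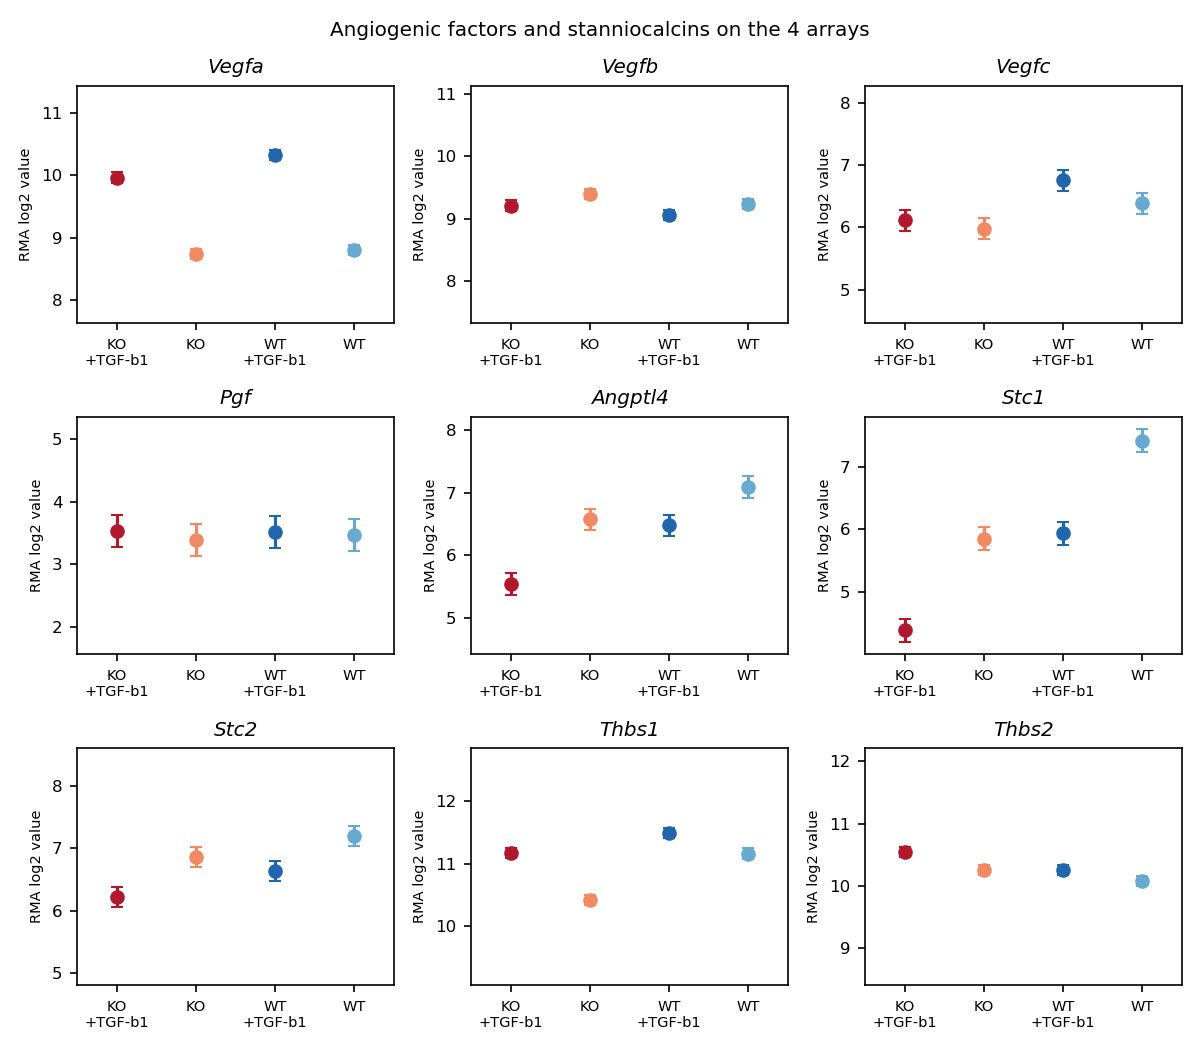
RMA log2 value of each of the 9 genes (y axis, the same span of 3.8 log2 units in every panel) on the 4 arrays (x axis), 1 point per array, with bars of ± the gene's noise SD. Vegfa is high in both treated arrays, and Stc1 spans 3.04 between the treated Snail1-KO and the untreated Snail1-WT array.

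Promoter sequence is shown for 1 VEGF ligand that differed at least 2-fold with TGF-b1, Vegfa, and 1 that did not, Vegfb, together with Stc2, a stanniocalcin. The windows are from RefSeq on GRCm38.p6, all on the minus strand and written 5′ to 3′ from 250 bases before to 50 bases after the annotated start. They lie at chr17:46032328-46032627 for Vegfa, chr19:6987602-6987901 for Vegfb and chr11:31370012-31370311 for Stc2. Capitals mark the SMAD-binding letters CAGAC, the Snail1 E-box letters CAGGTG, the hypoxia response core ACGTG and the AP-1 letters TGANTCA, on either strand.
Vegfa: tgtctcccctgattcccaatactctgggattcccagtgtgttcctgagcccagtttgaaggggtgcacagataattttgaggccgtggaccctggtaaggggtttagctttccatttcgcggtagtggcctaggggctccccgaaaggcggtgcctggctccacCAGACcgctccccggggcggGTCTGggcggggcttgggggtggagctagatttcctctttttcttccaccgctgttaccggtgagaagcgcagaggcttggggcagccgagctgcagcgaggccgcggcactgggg
Vegfb: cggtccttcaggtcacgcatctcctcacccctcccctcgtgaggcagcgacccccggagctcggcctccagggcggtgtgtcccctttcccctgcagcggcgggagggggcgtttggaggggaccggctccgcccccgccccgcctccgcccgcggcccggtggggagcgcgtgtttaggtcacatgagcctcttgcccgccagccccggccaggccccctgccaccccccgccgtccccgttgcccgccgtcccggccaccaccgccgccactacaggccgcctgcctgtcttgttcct
Stc2: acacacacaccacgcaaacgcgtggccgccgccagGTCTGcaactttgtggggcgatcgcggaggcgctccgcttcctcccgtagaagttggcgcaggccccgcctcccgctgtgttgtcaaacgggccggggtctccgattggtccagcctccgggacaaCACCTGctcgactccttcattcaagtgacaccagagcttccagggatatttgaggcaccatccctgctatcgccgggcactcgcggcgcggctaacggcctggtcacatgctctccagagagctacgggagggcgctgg
The Vegfa window held 2 CAGAC matches, of which the second ends on the first base of a GC box (GGGCGG), the Vegfb window held none of the marked letters, and the Stc2 window held 1 CAGAC and 1 CAGGTG match.

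RefSeq windows were at hand for 7 of the 10 genes, with 9 windows in all. None was at hand for Stc1, Angptl4 or Thbs1, while Angptl2, whose expression was not analysed, had a window. The shares below thus leave out Stc1 and Angptl4, which differed at least 2-fold. CAGAC stood in 7 of the 9, against 49.6% of 32851 windows of this length, and CAGGTG in 3 of 9, against 20.2%. The windows with CAGAC were those of Angptl2, Stc2, Pgf, Thbs2 and Vegfa, of which Pgf and Vegfa had 2 windows each. ACGTG stood in 1 of 9, a window at a second annotated start inside the Vegfa gene, against 19.6%. That second Vegfa window, not printed here, also held 2 CAGGTG and 2 CAGAC matches. The other windows with CAGGTG were those of Stc2 and Pgf. TGANTCA stood in 0 of 9, against 7.81%. GGGCGG stood in 6 of 9, against 35.7%, and the TATA box letters TATAAA in 1 of 9 (Thbs2), against 13.6%. The G and C content of the 9 windows ran from 48.3% (Thbs2) to 75.3% (Vegfb), against a median of 52.7% over all windows. A match of letters is a description and says nothing of binding.

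Angptl4, a secreted inhibitor of lipoprotein lipase, measured 5.54 in treated and 6.57 in untreated Snail1-KO cells, and 6.48 in treated and 7.09 in untreated Snail1-WT cells. The array of treated Snail1-KO cells was the lowest and that of untreated Snail1-WT cells the highest, and the arrays between them differed by less than the noise SD of 0.17. The TGF-b1 response was -1.04 in Snail1-KO cells (rank 33 from the bottom) and -0.61 in Snail1-WT cells (rank 226 from the bottom). Snail1-KO minus Snail1-WT was -0.94 with TGF-b1, just short of 2-fold, and -0.52 without. The difference of the responses was -0.43, in size 1.78 times its noise SD.

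Stc1 and Stc2 encode stanniocalcins, glycoprotein hormones first known from calcium control in fish. Stc1 measured 4.38 in treated and 5.85 in untreated Snail1-KO cells, and 5.94 in treated and 7.42 in untreated Snail1-WT cells. Treatment and genotype thus went the same way, and the arrays with only one of them, untreated Snail1-KO and treated Snail1-WT, differed by 0.085, under the noise SD of 0.18. The TGF-b1 response was -1.47 in Snail1-KO cells and -1.48 in Snail1-WT cells, rank 8 from the bottom of the kept genes in each. Snail1-KO minus Snail1-WT was -1.55 with TGF-b1 (rank 20 from the bottom) and -1.57 without (rank 28). The difference of the responses was 0.016. The range over the 4 arrays was 3.04, or 8.22-fold, and 10 of the 13308 kept genes had a larger one. The treated Snail1-KO value lies below 4.51, the lowest mean of a kept gene, so the size of the differences that use it is uncertain.

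Stc2, whose product inhibits the protease pappalysin 1, followed the same order of arrays except in the middle. It measured 6.22 in treated and 6.86 in untreated Snail1-KO cells, and 6.63 in treated and 7.20 in untreated Snail1-WT cells. Its TGF-b1 responses were -0.65 and -0.57, and Snail1-KO minus Snail1-WT was -0.42 with TGF-b1 and -0.34 without, with a noise SD of 0.16. None of these reached 2-fold.

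Thbs1, which encodes the matricellular protein thrombospondin 1, measured 11.17 in treated and 10.41 in untreated Snail1-KO cells, and 11.50 in treated and 11.16 in untreated Snail1-WT cells. The untreated Snail1-KO array stood lowest, and the treated Snail1-KO array lay 0.0068 above the untreated Snail1-WT array. The TGF-b1 response was 0.76 in Snail1-KO cells (1.69-fold) and 0.34 in Snail1-WT cells (1.26-fold), with a noise SD of 0.081. Snail1-KO minus Snail1-WT was -0.33 with TGF-b1 and -0.75 without. The response was larger in Snail1-KO cells by 0.42, or 3.70 times the noise SD of such a difference (0.11). In multiples of the noise SD this was more than for any other of the 9 genes. In log2 size the difference for Angptl4, at -0.43, was about as large. Of the kept genes, 90.6% had a smaller absolute difference of responses than Thbs1. Thbs2, its close relative, measured 10.55 in treated and 10.26 in untreated Snail1-KO cells, and 10.25 in treated and 10.08 in untreated Snail1-WT cells. Its TGF-b1 responses were 0.29 and 0.17, and Snail1-KO minus Snail1-WT was 0.30 with TGF-b1 and 0.18 without, with a noise SD of 0.083. Thbs2 and Vegfb were the only genes of the 9 with a higher value in Snail1-KO cells in both pairs.

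Over the 9 genes, the TGF-b1 response was at least 2-fold for 3 in Snail1-KO cells (Vegfa higher, Angptl4 and Stc1 lower), where 1.31% of kept genes were. It was at least 2-fold for 2 in Snail1-WT cells (Vegfa higher, Stc1 lower), where 0.984% were. The genes split in direction: 5 were higher and 4 lower after TGF-b1 in each genotype, with medians of 0.14 in Snail1-KO and 0.055 in Snail1-WT cells, against -0.021 and -0.026 over all kept genes. The genotype difference was at least 2-fold for 1 of the 9, Stc1, both with TGF-b1, where 1.70% of kept genes were, and without, where 1.57% were. Snail1-KO cells had the lower value for 6 of 9 with TGF-b1 and 7 of 9 without it. The medians were -0.37 and -0.34, against -0.0024 and -0.00030 over all kept genes. At least 1.5-fold apart were 5 of the 9 in the response of Snail1-KO cells (Stc2 and Thbs1 in addition), where 5.14% of kept genes were, and 3 in that of Snail1-WT cells (Angptl4 in addition), where 4.37% were. For genotype they were 3 of the 9 with TGF-b1 (Vegfc and Angptl4 in addition), where 8.14% of kept genes were, and 2 without (Thbs1 in addition), where 7.15% were. The genes were chosen by name with earlier results of these arrays known, so these shares describe them and test nothing.

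**Figure D2:**
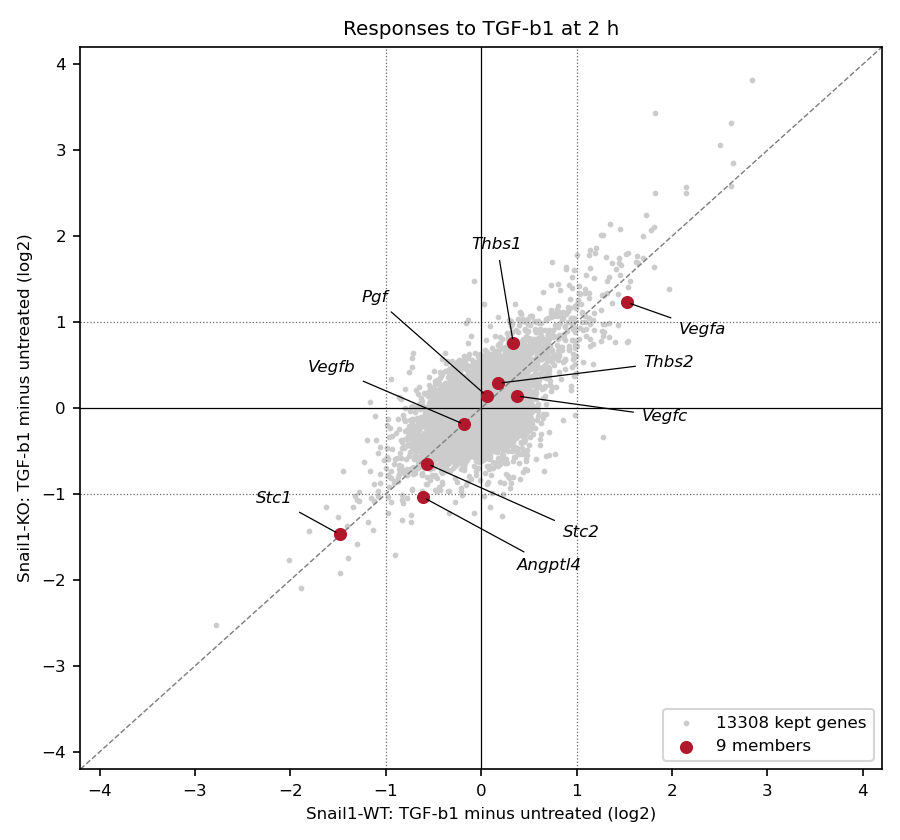
Difference between TGF-b1-treated and untreated cells in Snail1-WT (x axis) and Snail1-KO cells (y axis), in log2 units, for 13308 kept genes (grey) and the 9 genes (red), with the diagonal dashed and 2-fold dotted. Vegfa lies near the upper end at 1.53 and 1.23, and Stc1 near the lower end at -1.48 and -1.47.

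**Figure D3:**
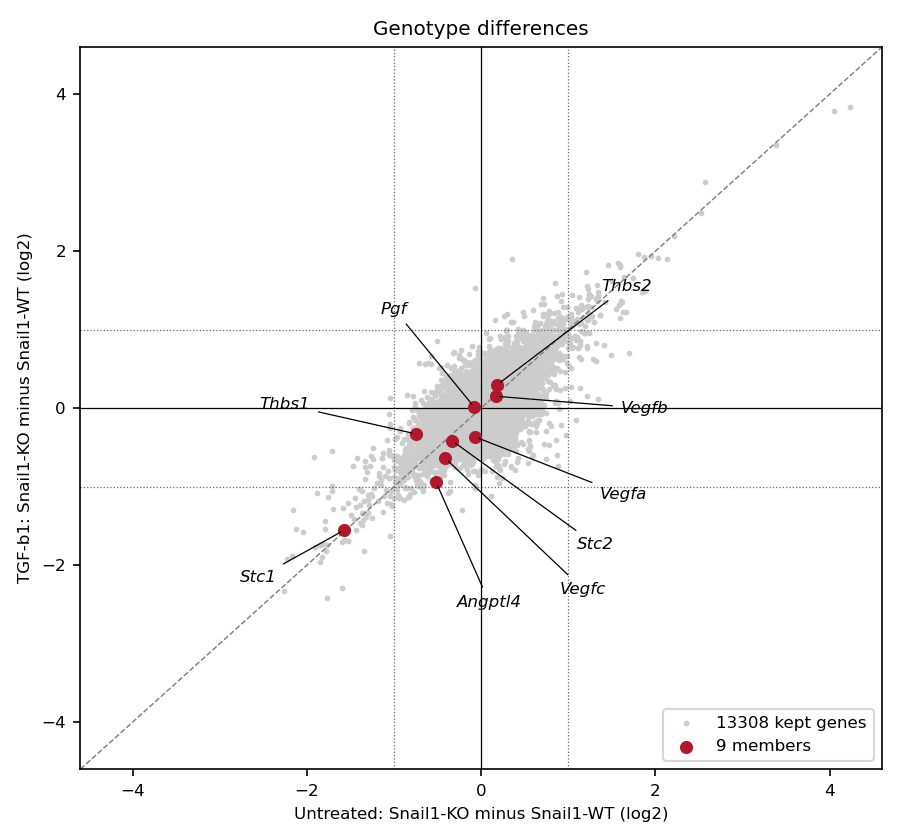
Snail1-KO minus Snail1-WT in untreated (x axis) and TGF-b1-treated cells (y axis), in log2 units, for 13308 kept genes (grey) and the 9 genes (red), with the diagonal dashed and 2-fold dotted. Stc1 at -1.57 and -1.55 is the 1 gene of the 9 beyond the dotted lines on both axes.

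Other genes of these pathways were described by lists. Unless 1 kind is named, a count of genes at least 2-fold apart covers both TGF-b1 responses and both genotype differences together. In a single comparison 0.984% to 1.70% of kept genes were at least 2-fold apart. A share of kept genes over all comparisons together was not computed, so these counts describe the lists and test nothing. Of the 6 measured further VEGF ligands and receptors, 0 differed at least 2-fold in a TGF-b1 response or a genotype difference. The ligand gene Vegfd differed with TGF-b1 by -0.41 in Snail1-KO and -0.50 in Snail1-WT cells. Flt1, which encodes VEGF receptor 1, differed by 0.43 and 0.0059, and the VEGF co-receptor genes Nrp1 and Nrp2 by 0.37 and 0.14 and by 0.34 and 0.15. Of 8 measured angiopoietin, Tie receptor and further angiopoietin-like genes, 1 differed at least 2-fold. This was Angpt1, the ligand that steadies vessels through the receptor Tek. It measured 8.44 in treated and 8.54 in untreated Snail1-KO cells, against 6.99 in treated and 7.30 in untreated Snail1-WT cells. Snail1-KO cells were thus higher by 1.44 with TGF-b1 and by 1.24 without, opposite in direction to Stc1, Stc2, Angptl4 and Vegfc.

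Of 7 further thrombospondins and thrombospondin receptors, 1 differed at least 2-fold. Itgb3, the integrin beta 3 subunit that pairs with the product of Itgav to bind thrombospondin 1, measured 7.93 in treated and 5.92 in untreated Snail1-KO cells, and 6.35 in treated and 5.07 in untreated Snail1-WT cells. TGF-b1 responses of Itgb3 were 2.02 and 1.28, and those of Itgav 0.48 and 0.41. Thbs3, like Thbs2, was higher in Snail1-KO cells, by 0.56 with TGF-b1 and 0.72 without. Of 5 pappalysins and insulin-like growth factor binding proteins, 0 differed at least 2-fold. Pappa, encoding the protease that stanniocalcin 2 inhibits, had responses of 0.76 in Snail1-KO and 0.45 in Snail1-WT cells, opposite in sign to those of Stc2.

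Of 17 measured hypoxia response genes, 1 differed at least 2-fold with TGF-b1 in each genotype. This was Adm, encoding the vessel-relaxing peptide adrenomedullin, at -2.09 in Snail1-KO and -1.89 in Snail1-WT cells. The oxygen sensor gene Egln3 differed by -0.48 and -0.93. The medians of the list were -0.0073 and -0.010, against -0.021 and -0.026 over all kept genes. In TGF-b1 responses the list as a whole thus had a median near that of all genes. Vegfa was higher and Stc1, Angptl4 and Adm were lower in treated cells. Slc2a1, a gene of the list, was higher with TGF-b1, by 0.66 in Snail1-KO and 0.40 in Snail1-WT cells. Between genotypes the medians of the list were -0.061 with TGF-b1 and -0.16 without, against -0.0024 and -0.00030 over all kept genes. Ndrg1 went the other way, at 0.78 with TGF-b1 and 1.05 without it, with the higher values in Snail1-KO cells. Epas1, which encodes the hypoxia factor HIF-2 alpha, differed by -1.08 with and -0.38 without TGF-b1, but measured 4.14 and 4.50 in treated and untreated Snail1-KO cells, below the kept level, so these sizes are uncertain. As a check of treatment, 6 of 8 measured early target genes of TGF-b signalling were at least 2-fold higher in treated cells of each genotype, with medians of 1.74 in Snail1-KO and 1.44 in Snail1-WT cells.

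**Figure D4:**
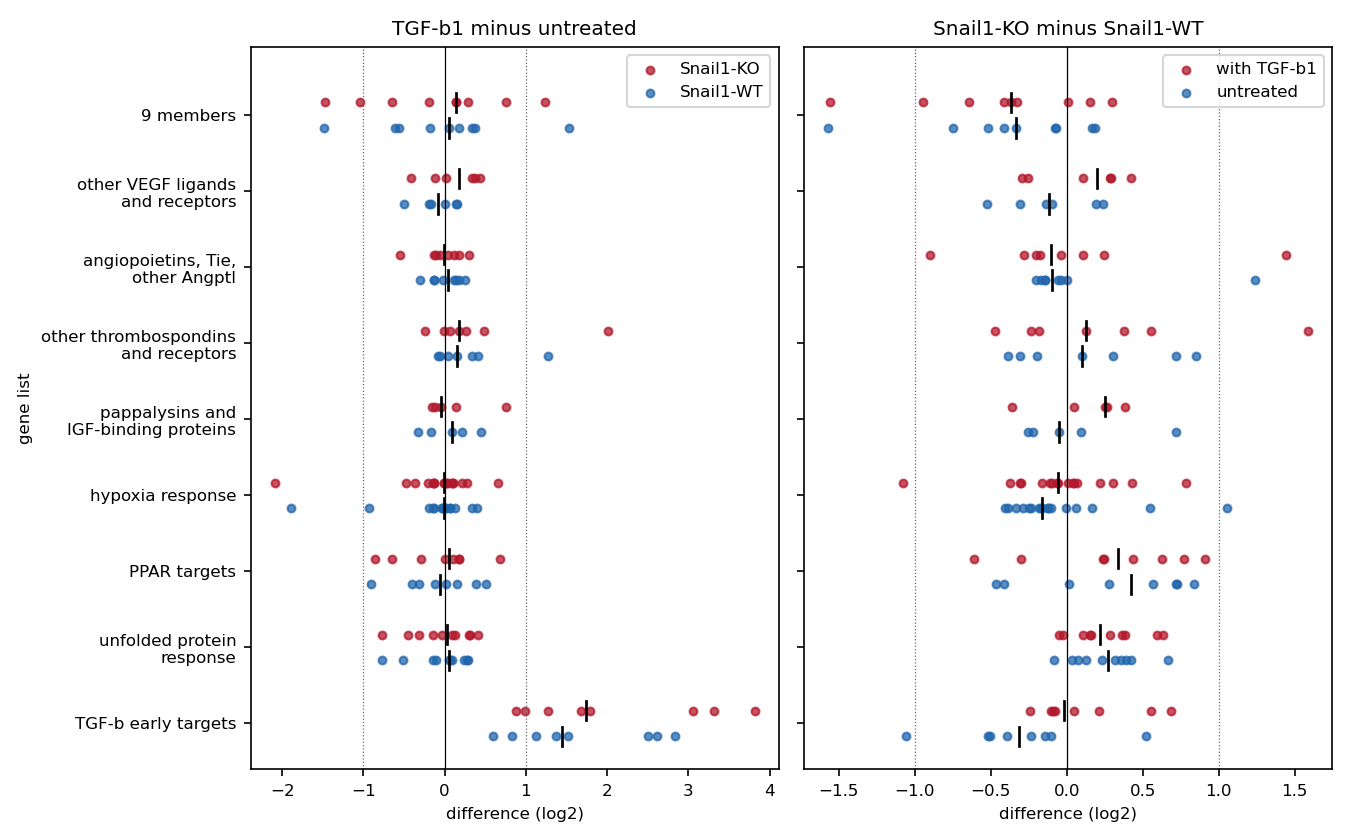
Difference in log2 units (x axis) of each gene in the 9 genes and in 8 lists (y axis), between treated and untreated cells (left: Snail1-KO red, Snail1-WT blue) and between Snail1-KO and Snail1-WT cells (right: with TGF-b1 red, untreated blue), 1 point per gene, black bars the medians. On the left the hypoxia genes centre near 0 with Adm apart at -2.09 and -1.89. On the right Angpt1 and Itgb3 lie apart at 1.44 and 1.59 with TGF-b1.

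The genes with the most similar pattern over the 4 arrays were found for the 3 genes at least 2-fold apart in a TGF-b1 response or a genotype difference, by the root mean square distance of centred log2 values. Nearest to Vegfa were Lrrc15 (distance 0.0995), Creb3l2 (0.11) and Relt (0.11). Creb3l2, a membrane-bound transcription factor gene of the secretory pathway, responded to TGF-b1 by 1.41 in Snail1-KO and 1.54 in Snail1-WT cells. Nearest to Angptl4 were Arsj (0.12), the pentraxin gene Ptx3 (0.14) and the sphingosine-1-phosphate receptor gene S1pr1 (0.14). Nearest to Stc1 were Rasl11a (0.24), Amigo2 (0.28) and the zinc finger factor gene Osr1 (0.38). Rasl11a had responses of -1.31 and -0.83 and genotype differences of -1.82 with TGF-b1 and -1.34 without. With 4 arrays, such likeness is only a description.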

How the data were processed

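Total RNA was labelled with the WT PLUS kit and hybridised to 4 Affymetrix arrays, per the labels' protocols. Per the submitters' processing notes, the log2 values that the authors deposited came from RMA, run in R 3.1.1. RMA equalises the distributions of the arrays, so a shift of most genes in 1 direction would be removed. Array medians lay between 4.58 and 4.63. No genome build is given in the sources used here. The number of arrays limits the precision.

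Groups came from the sample titles and source names. The platform annotation gave 1 gene symbol for 23521 of 41345 probe sets, several for 1814 and no name here for 16010. For each gene the brightest probe set by mean was used, and the upper 60% of genes by mean (13308) were kept for the counts over all genes. Differences of log2 values were computed with Python 3.11.15, numpy 2.4.6 and pandas 2.3.3, and no p-value was computed. The noise SD is 1.4826 times the median absolute deviation of the responses' difference over the square root of 2. The calculation was tested on simulated data with independent noise of the same SD for every gene. Those data held no true difference of responses and no culture effect, so the test checks the calculation only. Promoter windows came from RefSeq (GRCm38.p6). All 9 measured genes are named. The 3 nearest kept genes are given for each gene at least 2-fold apart in at least 1 of the 4 comparisons. These comparisons are both responses and both genotype differences. From the lists some genes are named, mostly from the 4 per list with the largest differences. Of the genes with the largest differences, Angpt2, Thbs4, Pappa2, Fabp4 and Atf3, among others, are not described. Alternatives were median centring, cyclic loess (limma 3.58.1 in R 4.3.3), the mean of all probe sets, a 1.5-fold threshold and other filters. The genes and lists were chosen with earlier results of these data known.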

Additional observations from a re-analysis of the deposited data

How the results depend on the processing

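Median centring moved no difference of the 9 genes by more than 0.050, cyclic loess by no more than 0.031, and the mean of all probe sets moved none, since each gene had 1 probe set. None of the 36 differences between 2 arrays changed sign under these 3 settings, and the counts of genes at least 2-fold apart were the same. The median difference of the responses of the 9 genes, -0.015 as deposited, was 0.033 with median centring, -0.039 with cyclic loess and -0.015 with the mean of probe sets, all under the noise SD of any of the 9 genes. With a 1.5-fold threshold 5 of the 9 genes were counted in the response of Snail1-KO cells in place of 3, 3 in that of Snail1-WT cells in place of 2, 3 in the treated genotype pair in place of 1 and 2 in the untreated pair in place of 1. Over all kept genes that threshold gave 684, 581, 1083 and 951 genes in place of 174, 131, 226 and 209. Leaving out an array was not run, since each group had 1. For the same reason no paired analysis was possible. An additive fit of genotype and treatment over the 4 arrays, with 1 residual degree of freedom, was not run. Signals near background limit Pgf, and Stc1 in treated Snail1-KO cells.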

Other observations

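A pair of further gene lists had medians further from 0 between genotypes than between treatments. Of 8 measured PPAR target and receptor genes, 0 differed at least 2-fold in a TGF-b1 response or a genotype difference. Their median was 0.34 higher in Snail1-KO cells with TGF-b1 and 0.42 without, against -0.0024 and -0.00030 over all kept genes, while the medians of the TGF-b1 responses were 0.054 in Snail1-KO and -0.051 in Snail1-WT cells. Cpt1a, which admits fatty acids to mitochondria, was higher by 0.91 and 0.73, Pdk4, a brake on glucose oxidation, by 0.77 and 0.72, and the lipid droplet gene Plin2 by 0.63 and 0.84. The receptor genes Ppara and Ppard in the list were lower, at -0.61 and -0.47 and at -0.30 and -0.41. Over the 7 genes of the list that were kept, the medians were 0.43 with TGF-b1 and 0.28 without. Angptl4, also a PPAR target, went the other way at -0.94 and -0.52. With TGF-b1, Pdk4 differed by -0.85 in Snail1-KO and -0.91 in Snail1-WT cells. Cpt1a and Plin2 were higher with TGF-b1, by 0.69 and 0.50 and by 0.18 and 0.39.

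The unfolded protein and amino acid response genes, 10 measured, had a median of 0.22 with and 0.27 without TGF-b1 in Snail1-KO minus Snail1-WT cells, and 0 were at least 2-fold apart. The medians of their TGF-b1 responses were 0.030 in Snail1-KO and 0.056 in Snail1-WT cells. Trib3 differed by 0.63 and 0.43 and Herpud1 by 0.60 and 0.36. Ddit3, a stress-induced transcription factor gene, differed with TGF-b1 by -0.77 in both Snail1-KO and Snail1-WT cells. Stc2 went the other way between genotypes, at -0.42 and -0.34.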
